A study of Homo sapiens with 8 samples.

Results

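BG01 hESCs that received control mouse IgG were compared after 24 h and after 12 h of treatment. BG01 is an established human embryonic stem cell line, so every library came from 1 genetic background. The comparison used 4 of the 8 libraries of the study, 2 from IgG-treated cells at 12 h and 2 from IgG-treated cells at 24 h, chosen by their labels alone. The other 4 libraries came from cells treated for the same times with anti-M8nAb, an antibody that neutralizes MFGE-8, and both antibodies were used at 5 µg/mL. MFGE-8 is a secreted glycoprotein that binds phosphatidylserine on membranes at one end and integrins at the other, and the IgG-treated cells are the controls in which it was not neutralized. Per the methods of the study, the cells grew without feeder cells on Matrigel in mTeSR1, a defined medium that supplies FGF2 and TGF-β, and the medium was replaced every 24 h. There were no untreated cells and no library from the start of treatment, so the comparison describes a change between 12 h and 24 h and not a response to IgG. Harvest and library handling cannot be told apart from time. The libraries of a group were labelled as biological replicates, but the labels do not tell if separate cultures were used. The spread behind each p-value is therefore that of the libraries and may be technical.

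Pluripotent stem cells hold their state through a network around the transcription factors POU5F1 (OCT4), SOX2 and NANOG, which in culture depends on FGF and activin signals. They divide fast, with a short G1 phase and a long S phase, and produce large amounts of ribosomes and chaperones. They also carry the p53 pathway, whose targets include the CDK inhibitor CDKN1A, the ubiquitin ligase MDM2 and several death receptors and BH3-only proteins.

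The 4 libraries were alike in depth, with 21406653 and 21557929 counts in genes at 12 h and 21746864 and 21792716 at 24 h. Levels are given as CPM, the count of a gene scaled to a common library size with TMM factors, and 20165 of 62086 genes had enough counts to be tested. Changes are log2 fold changes of 24 h over 12 h from edgeR's quasi-likelihood test, with Benjamini-Hochberg adjustment over all genes tested and 2 libraries per time. The standard error after ± was worked out from the change and the F statistic of that test, which was fitted over all 8 libraries. It is not the spread of the 2 libraries of a time. In these bulk libraries, fewer cells of a type and less RNA per cell cannot be told apart. A principal component analysis used DESeq2's variance-stabilized values of only the genes most variable across these 4 libraries. Choosing genes this way raises the share of the first component, which held 81.2% of the variance. It separated the times, placing the 12 h libraries at -5.95 and -6.40 and the 24 h libraries at 6.11 and 6.24. Over all genes tested the separation was less marked. Distances between libraries in log2 CPM were 54.4 and 53.7 within a time, against 65.9 to 67.4 between times.

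One library stood apart in base composition. In the second IgG library at 24 h, a gene's level relative to the mean of all libraries was correlated with the GC content of its exons (Pearson's r = 0.374 across 12557 genes, a description, since genes are not independent), against 0.018 to 0.037 in the other 3 IgG libraries. In the decile of genes with the lowest GC content, the median difference from the mean of the 12 h libraries was -0.13 log2 units in this library and 0.0062 in the first 24 h library. In the decile with the highest GC content, the medians were 0.14 and -0.013. Genes that rose and fell differed in the same direction, with a median exon GC content of 51.5% among genes that rose, 43.6% among genes that fell and 48.2% among all genes tested. With an offset that removes each library's trend with GC content, these medians were 47.9% and 46.8% for the genes then called, and without the second 24 h library they were 46.6% and 47.0%. With this offset 1576 genes were higher and 1609 lower, and 1291 and 1242 of the genes called without it were called in the same direction. All 132 genes named here that passed the test were called in the same direction with the offset. Counts of the gene lists are also given with each library left out, wherever that moved a count above 2 by over 1.5 times.

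**Figure D1:**
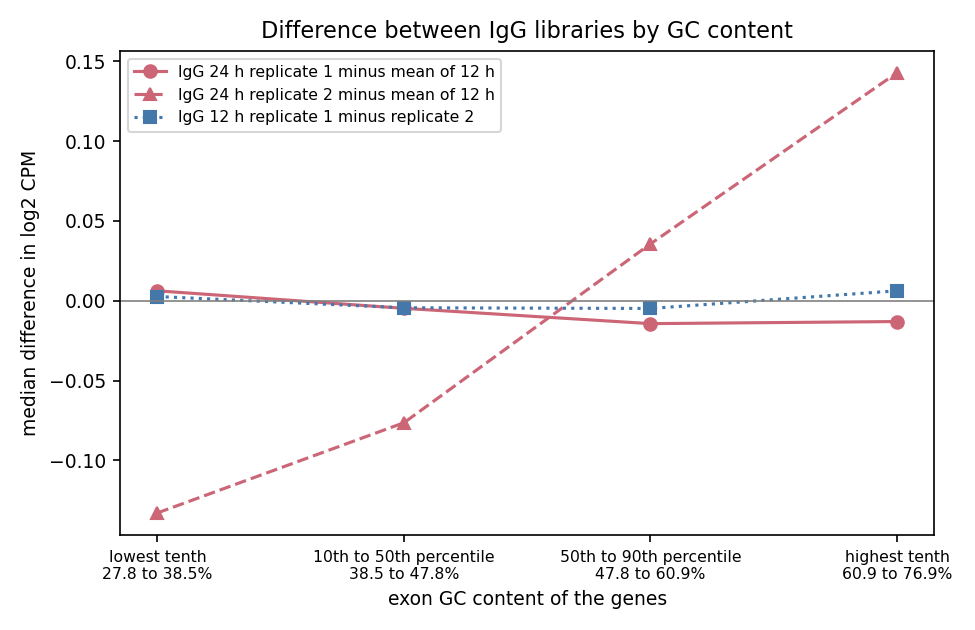
Median difference in log2 CPM (y axis) between IgG libraries in 4 classes of genes by exon GC content (x axis, in percent), for each 24 h library against the mean of the 12 h libraries and for the 12 h libraries against each other. The second 24 h library (dashed) runs from -0.13 in the lowest decile to 0.14 in the highest, whereas the other lines stay between -0.014 and 0.0063.

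The cells had the markers of pluripotent cells at both times. MFGE8 had 811 and 823 CPM at 12 h and 823 and 859.7 CPM at 24 h, a change that did not pass the test (0.042 ± 0.044, adjusted p = 0.598). POU5F1 had 1358 and 1401 CPM at 12 h and 1309 and 1329.7 CPM at 24 h (-0.064 ± 0.041, adjusted p = 0.329), and NANOG had 105 and 105 CPM at 12 h and 108 and 105 CPM at 24 h (0.018 ± 0.061, adjusted p = 0.894). SOX2 had 257 and 257 CPM at 12 h and 224 and 256 CPM at 24 h (-0.10 ± 0.055, adjusted p = 0.257). None of these 4 genes passed the test. The times overlapped for MFGE8 and NANOG, and the lower of the SOX2 values at 24 h stood apart from the other 3 libraries. Every other marker used to identify pluripotent cells fell past the test. The log2 changes were -0.12 for LIN28A (adjusted p = 0.0353), -0.16 for TDGF1 (adjusted p = 0.013) and -0.23 for DPPA4 (adjusted p = 0.000229). DNMT3B and L1TD1, given below, fell too. LIN28A, TDGF1 and DPPA4 are left out of the counts and lists of named genes. Most defining markers of other lineages were at or near 0. SOX17, GATA4, MESP1, CGA, LUM, DCN and FAP had at most 7 counts in any IgG library, as did TBXT and GATA3, and COL3A1 had 8 to 10. SOX1 had 2 to 16 counts, PAX6 10 to 27, MIXL1 6 to 47 and FOXA2 40 to 72, and KRT7, a keratin of simple epithelia and trophoblast, had 400 to 462. Of these 5 genes MIXL1 passed the test. Among the markers that fibroblasts share with stem cells, COL1A1 had 66.3 and 64.8 CPM at 12 h and 74.3 and 83.03 CPM at 24 h and rose (0.26 ± 0.071, adjusted p = 0.00897), and THY1 had 389 and 388 CPM at 12 h and 437 and 441 CPM at 24 h and rose (0.18 ± 0.048, adjusted p = 0.00926), COL1A1 not past the test without the second 24 h library.

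Between 12 h and 24 h, 1414 genes (7.01% of those tested) were higher and 1339 (6.64%) were lower at an adjusted p under 0.05. Most of the changes were small. Of the genes that rose, 935 changed by less than 1.5-fold, and so did 1141 of those that fell, and the median log2 change was 0.45 among the former and -0.31 among the latter. With the 2-fold threshold of the study, 191 genes (0.947%) were higher and 76 (0.377%) were lower. Both 24 h libraries lay above both 12 h libraries for 5467 genes (27.1%) and below them for 5611 (27.8%), so separation of 2 libraries from 2 is common in these data. Protein-coding genes made up 1277 of the genes that rose and 1187 of those that fell, and long non-coding RNAs 124 and 128. Without the second 24 h library, 852 genes were higher and 667 lower, and 765 and 588 of these were also called with it. Without the first 24 h library the counts were 1052 and 1026. Both 24 h libraries lay beyond both 12 h libraries for all 1414 genes that rose and for 1337 of the 1339 that fell. Every gene called with all libraries kept its direction without either 24 h library, which this separation largely fixed in advance. Separation of the times given for single called genes below is therefore no further support for them. Without the first or the second 12 h library, 698 and 552 genes were higher and 565 and 376 lower. Of the genes named here that passed the test with all libraries, those not past it without the first 12 h library were CCNG2, CFAP44, COL1A1, COL4A4, DOC2B, ENSG00000271978, ETV1, GIPC3, H3C10, ISM1, ITGB5, KDR, MAP1B, MGC4859, MIXL1, SLC11A2, SLC22A3, SLC7A11, SMAD7, THY1, USP6 and VIM. Those not past it without the second 12 h library were CDKN1B, CFAP44, COL1A1, COL4A4, DET1, EFCAB13, ENSG00000271978, ETV1, FABP7, GIPC3, GJA1, H2BC4, H3C10, HNRNPA1, IRF1, ISM1, ITGB5, MAP1B, MGC4859, MT2A, PGBD4, PPP1R32, RB1, SCD, TCHH, THY1, TXNRD1, USP6 and VIM. For the gene lists, counts with 1 library left out are given in the order of the first and the second library at 12 h and the first and the second at 24 h. The counts of every list below are to be read against the 7.01% and 6.64% of all genes tested.

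Genes that p53 activates and genes that report FGF signalling, described next, were the lists with the largest shares of higher members. Of 31 members, 30 were tested, and 21 rose and 1 fell, against the 7.01% and 6.64% of all genes. Their median log2 change was 0.43, against 1.77e-05 over all genes tested. All lists were written with earlier results of these data known, so these shares and medians are descriptions and were not tested. With 1 library left out, 17, 16, 18 and 20 rose. DESeq2 called 19 of the p53 targets and 13 of 19 FGF genes higher, so the FGF list then had the larger share. The genes of this list with the smallest adjusted p are shown first by the 250 bases before their start, together with the corresponding genes of the FGF list described next, since these were the lists with the largest shares of genes that changed in 1 direction. The sequences are from RefSeq (GRCh38.p14), run 5′ to 3′ on the strand of the gene, and have in capitals any match, on either strand, to the motifs TGACGTCA (the CRE bound by CREB and ATF factors), TGATGCAA (amino acid response), CACGTG (E-box), ACGTG (the core of the hypoxia element, held within the E-box), TTTGAA (CHR), TTTCCCGC and TTTGGCGC (E2F), CCAAT (NF-Y), GGGCGG (GC box), TTCNNGAA (heat shock), TCACNCCAC (sterol response), the CArG box of SRF and the p53 half-site, the last of which was added after the values were seen. They lie at chr1:203305269-203305518 on the plus strand for BTG2, and on the minus strand at chr3:179071810-179072059 for ZMAT3, chr1:16156070-16156319 for EPHA2 and chr12:76031777-76032026 for PHLDA1. PHLDA3, the p53 target with the next smallest adjusted p after BTG2, had no promoter in the table used.
BTG2: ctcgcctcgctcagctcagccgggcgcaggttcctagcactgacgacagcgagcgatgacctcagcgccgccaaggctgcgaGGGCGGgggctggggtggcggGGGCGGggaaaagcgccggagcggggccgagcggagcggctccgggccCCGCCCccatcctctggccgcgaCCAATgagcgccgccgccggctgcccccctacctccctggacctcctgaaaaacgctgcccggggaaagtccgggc
ZMAT3: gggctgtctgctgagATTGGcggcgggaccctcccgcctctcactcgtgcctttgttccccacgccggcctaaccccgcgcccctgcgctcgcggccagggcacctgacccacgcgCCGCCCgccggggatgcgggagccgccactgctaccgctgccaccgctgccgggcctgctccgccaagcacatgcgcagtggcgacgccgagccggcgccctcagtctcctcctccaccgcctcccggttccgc
EPHA2: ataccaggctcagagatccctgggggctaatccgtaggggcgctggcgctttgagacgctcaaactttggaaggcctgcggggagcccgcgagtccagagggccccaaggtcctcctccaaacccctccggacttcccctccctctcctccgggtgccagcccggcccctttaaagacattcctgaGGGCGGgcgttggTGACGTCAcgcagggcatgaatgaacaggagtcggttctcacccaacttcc
PHLDA1: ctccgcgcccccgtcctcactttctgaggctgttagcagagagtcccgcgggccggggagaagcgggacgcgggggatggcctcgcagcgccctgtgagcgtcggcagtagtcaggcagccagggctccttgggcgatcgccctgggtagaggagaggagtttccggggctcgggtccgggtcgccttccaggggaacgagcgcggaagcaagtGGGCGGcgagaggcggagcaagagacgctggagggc

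The window of BTG2 held 3 GC boxes and 1 CCAAT, that of ZMAT3 held 1 of each, and PHLDA1 had 1 GC box. EPHA2 had 1 GC box and a CRE, 51 to 44 bases before the start. Windows of this length held the GC box in 42.6% of the 35116 promoters of the table, CCAAT in 32.0% and the CRE in 1.65%. Of the p53 targets, 25 had a promoter in the table, and 20 (80.0%) of these held a GC box, 12 (48.0%) a CCAAT and 3 (12.0%) a p53 half-site, which 5.57% of all promoters held. Of the FGF list, 13 had a promoter and 9 (69.2%) held a GC box. The list shares count 1 promoter per gene, whereas the 35116 promoters were not limited to genes tested here. The shares are therefore not of like sets, and enrichment was not tested. These matches are descriptions of letters, and an absent match says only that the letters are not in this window.

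BTG2, an antiproliferative factor that recruits the deadenylation machinery (chr1:203305491-203309602), had 4.75 and 3.08 CPM at 12 h and 14.9 and 14.4 CPM at 24 h, and rose 3.75-fold (1.91 ± 0.16, adjusted p = 1.57e-11). PHLDA3, an inhibitor of AKT, had 16.4 and 14.2 CPM at 12 h and 30.1 and 33.7 CPM at 24 h (1.06 ± 0.11, adjusted p = 1.4e-09). ZMAT3, an RNA-binding p53 target, had 10.3 and 10.6 CPM at 12 h and 25.3 and 23.1 CPM at 24 h (1.21 ± 0.13, adjusted p = 4.46e-09). In each case both 24 h libraries were above both 12 h libraries, by more than the difference between libraries of a time. TNFRSF10B, the TRAIL receptor DR5, had 92.8 and 85.4 CPM at 12 h and 145 and 123 CPM at 24 h (0.59 ± 0.066, adjusted p = 1.77e-08). CCNG1, the gene of cyclin G1, was high throughout and had 334 and 324 CPM at 12 h and 422 and 393 CPM at 24 h (0.31 ± 0.049, adjusted p = 1.44e-05). GDF15, a secreted stress cytokine, was close to the limit of the data, with 0.599 and 0.184 CPM at 12 h and 1.69 and 2.03 CPM at 24 h (2.23 ± 0.39, adjusted p = 6.79e-05). TP53I3, named because it was the only p53 target that fell, had 43.5 and 41.3 CPM at 12 h and 31.4 and 30.2 CPM at 24 h (-0.46 ± 0.089, adjusted p = 0.000269).

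**Figure D2:**
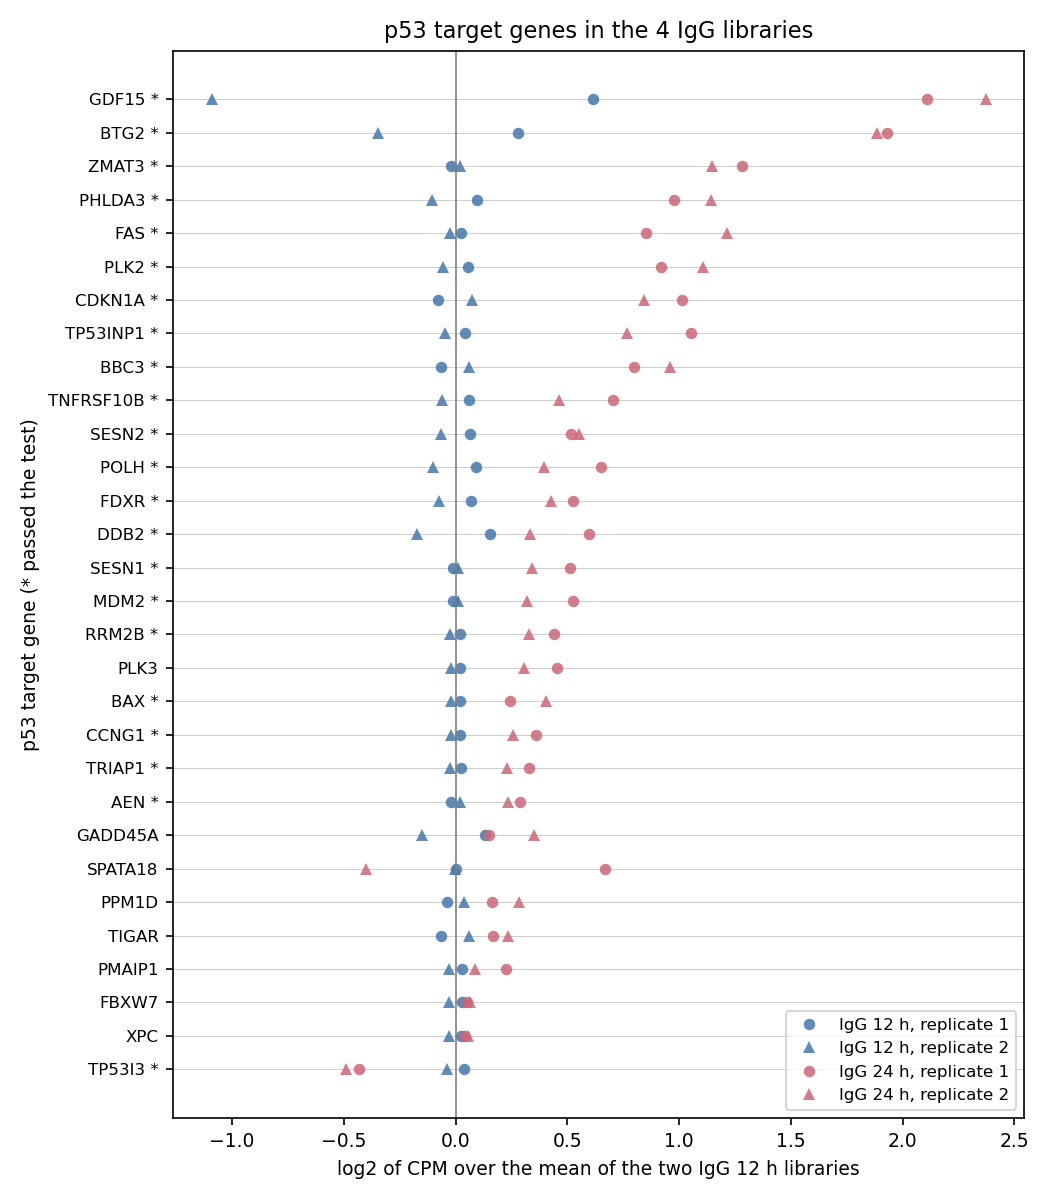
Level of each of the 30 tested p53 targets (y axis) in the 4 IgG libraries, as the log2 of its CPM over the mean of the 12 h libraries (x axis). Points are libraries, blue for 12 h and red for 24 h, circles for replicate 1 and triangles for replicate 2. For 21 genes marked with an asterisk the 24 h points lie to the right, and for TP53I3 to the left.

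Inhibitors of the cell cycle, a list that shares BTG2, PLK2, PLK3, CDKN1A, CCNG1 and GADD45A with the p53 targets, rose in 9 of 21 tested genes and fell in 2, with a median of 0.26. With 1 library left out, 9, 7, 9 and 8 rose and 1, 1, 1 and 0 fell. CDKN1A, the CDK inhibitor p21, had 9.77 and 10.9 CPM at 12 h and 20.8 and 18.5 CPM at 24 h (0.93 ± 0.12, adjusted p = 1.95e-07). PLK2, a polo-like kinase, had 12.7 and 11.7 CPM at 12 h and 23.05 and 26.3 CPM at 24 h (1.02 ± 0.11, adjusted p = 1.9e-08). TOB1, an antiproliferative factor of the BTG family, had 18.5 and 20.2 CPM at 12 h and 31.9 and 31.98 CPM at 24 h (0.72 ± 0.10, adjusted p = 1.88e-06), and 11.1% of its exon length is overlapped by a gene on the opposite strand, whose reads the count may not separate. CDKN1B, the CDK inhibitor p27, had 41.1 and 40.6 CPM at 12 h and 51.9 and 52.5 CPM at 24 h (0.35 ± 0.087, adjusted p = 0.00393). The levels of these 4 genes did not overlap between the times. RB1 and CCNG2, the genes that fell, were not past the test without the second 24 h library.

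FGF signalling works through ERK, which induces its own feedback inhibitors, the Sprouty, SPRED and DUSP proteins, and ETS factors of the ETV group. Of 19 tested genes that report this output, 13 rose and 1 fell, with a median of 0.31. With 1 library left out, 8, 5, 8 and 9 rose. EPHA2, a receptor tyrosine kinase induced by ERK, had 43.3 and 45.2 CPM at 12 h and 72.8 and 75.4 CPM at 24 h (0.74 ± 0.07, adjusted p = 2.34e-10). PHLDA1, a pleckstrin-homology protein of the same program, had 98.8 and 96.1 CPM at 12 h and 132 and 131 CPM at 24 h (0.43 ± 0.059, adjusted p = 9.5e-07). FOSL1, an AP-1 subunit, had 2.58 and 3.45 CPM at 12 h and 8.305 and 5.99 CPM at 24 h (1.24 ± 0.22, adjusted p = 5.69e-05). SPRY4, a Sprouty feedback inhibitor, had 157 and 156 CPM at 12 h and 196 and 191 CPM at 24 h (0.31 ± 0.056, adjusted p = 0.000135). DUSP6, an ERK phosphatase, had 472 and 441 CPM at 12 h and 451 and 423 CPM at 24 h and did not pass the test (-0.065 ± 0.049, adjusted p = 0.424), with 28.6% of its length opposite another gene. ETV1, an ETS factor, was the 1 member that fell, with 90.7 and 95.3 CPM at 12 h and 82.5 and 76.3 CPM at 24 h (-0.23 ± 0.067, adjusted p = 0.016), and it was not past the test without the second 24 h library. DUSP6 and ETV1 are named for going against the list and were chosen after their values were seen.

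Immediate early genes, the first transcripts that growth factors and stress induce, rose in 8 of 27 tested genes, 2 of which, BTG2 and FOSL1, are given above, and none fell. Their median was 0.27, and 5, 5, 8 and 5 rose with 1 library left out. NR4A1, an orphan nuclear receptor, had 26.7 and 25.7 CPM at 12 h and 36.9 and 34.7 CPM at 24 h (0.45 ± 0.094, adjusted p = 0.000763), and 10.3% of its exon length lies opposite another gene. IER2 had 138 and 145 CPM at 12 h and 173 and 192 CPM at 24 h (0.37 ± 0.058, adjusted p = 1.23e-05), with 30.7% of its length opposite another gene. Both were higher in each 24 h library than in each 12 h library.

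YAP and TAZ are transcriptional co-activators that respond to cell density and to tension on the cytoskeleton. Of 23 tested targets, 10 rose and 1 fell, with a median of 0.24. Leaving out 1 library gave 7, 7, 7 and 9 that rose. AMOTL2, an angiomotin that binds YAP and is also its target (chr3:134355347-134375479), had 61.3 and 60.3 CPM at 12 h and 135 and 141 CPM at 24 h, a 2.27-fold rise (1.18 ± 0.061, adjusted p = 6.29e-19). LATS2, the kinase that inhibits YAP, had 35.3 and 32.8 CPM at 12 h and 53.2 and 55.1 CPM at 24 h (0.67 ± 0.082, adjusted p = 1.18e-07). CCN2 (CTGF), a matricellular protein, had 81.5 and 76.3 CPM at 12 h and 111 and 114 CPM at 24 h (0.51 ± 0.062, adjusted p = 1.02e-07), with 11.9% of its length opposite LINC01013. DLC1, a RhoGAP, had 2.76 and 3.08 CPM at 12 h and 6.79 and 7.27 CPM at 24 h (1.26 ± 0.20, adjusted p = 1.17e-05). YAP1 itself, the 1 member that fell, had 195 and 196 CPM at 12 h and 169 and 151 CPM at 24 h (-0.29 ± 0.057, adjusted p = 0.000397), and 9.95% of its length lies opposite another gene.

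Genes of the extracellular matrix rose in 13 of 27 tested members and fell in 1. The number that rose was 2, 4, 9 and 5 with 1 library left out, so it depended on both 12 h libraries and on the second at 24 h, and it was 10 with the GC offset and 8 by DESeq2. HSPG2, the heparan sulfate proteoglycan perlecan, had 111 and 110.1 CPM at 12 h and 153 and 174 CPM at 24 h (0.56 ± 0.072, adjusted p = 2.41e-07), with 11.7% of its length opposite LDLRAD2. VCAN, the proteoglycan versican, was the member that fell, with 454 and 479 CPM at 12 h and 340.4 and 313 CPM at 24 h (-0.51 ± 0.052, adjusted p = 1.37e-09). Of 21 mesenchymal genes tested, 7 rose (3, 3, 7 and 5 with 1 library left out) and none fell, among them THBS1 (thrombospondin 1), with 49.4 and 45.8 CPM at 12 h and 67.6 and 67.7 CPM at 24 h (0.51 ± 0.065, adjusted p = 2.41e-07). TAGLN and VIM, cytoskeletal genes of this list, also rose, TAGLN with 34.1% and VIM with 12.7% of their length opposite another gene. Of 24 integrins and other partners of MFGE-8, 4 rose (1, 1, 2 and 3 with 1 library left out) and 1 fell. ITGB5, the β5 chain of the αvβ5 integrin, had 255 and 254 CPM at 12 h and 287 and 299 CPM at 24 h (0.20 ± 0.051, adjusted p = 0.00463). ITGA5, the fibronectin receptor chain, had 25.99 and 28.9 CPM at 12 h and 36.5 and 38.5 CPM at 24 h (0.45 ± 0.092, adjusted p = 0.000629).

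Some genes of each of the developmental signalling pathways rose. Over all genes tested, 7.01% rose and 6.64% fell. The median log2 change was 0.19 for the BMP list, 0.030 for WNT, 0.39 for Notch and 0.076 for NODAL and activin. Of 21 BMP pathway genes, 6 rose and 1 fell, and 7, 3, 6 and 3 rose with 1 library left out. ID3 and ID1, inhibitors of differentiation that BMP signals induce through SMAD proteins, had 114 and 115 CPM at 12 h and 168 and 175 CPM at 24 h for ID3 (0.58 ± 0.059, adjusted p = 1.99e-09), and 34.4 and 40.3 CPM at 12 h and 55.5 and 65.4 CPM at 24 h for ID1 (0.69 ± 0.10, adjusted p = 1.52e-06). The ligand BMP2 had 3.55 and 3.45 CPM at 12 h and 7.51 and 6.43 CPM at 24 h (0.99 ± 0.21, adjusted p = 0.000685). All 3 genes were higher in each 24 h library than in each 12 h library. In the WNT pathway, 6 of 32 tested genes rose (3, 2, 5 and 3 with 1 library left out) and 2 fell. DACT1, a Dishevelled antagonist, had 24.4 and 20.5 CPM at 12 h and 42.5 and 46.6 CPM at 24 h (0.99 ± 0.085, adjusted p = 1.57e-11). AXIN2, a feedback target of β-catenin, had 13.8 and 14.3 CPM at 12 h and 23.1 and 22.99 CPM at 24 h (0.71 ± 0.12, adjusted p = 3.16e-05), whereas TCF7L2, a TCF factor, fell, with 77.97 and 76.9 CPM at 12 h and 56.1 and 59.5 CPM at 24 h (-0.42 ± 0.07, adjusted p = 2.77e-05). Of 20 Notch pathway genes, 5 rose (4, 3, 5 and 3 with 1 library left out) and none fell. The receptor NOTCH1 had 79.99 and 84.3 CPM at 12 h and 102 and 116 CPM at 24 h (0.41 ± 0.071, adjusted p = 6.46e-05), the ligand JAG1 had 23.7 and 24.97 CPM at 12 h and 33.8 and 31.5 CPM at 24 h (0.42 ± 0.095, adjusted p = 0.00164), and LFNG, a glycosyltransferase that tunes Notch, had 13.8 and 14.5 CPM at 12 h and 22.4 and 24.6 CPM at 24 h (0.73 ± 0.12, adjusted p = 2.75e-05). In the NODAL and activin list, 4 of 25 rose and 1 fell. With 1 library left out, 0, 1, 2 and 1 rose and 2, 0, 2 and 0 fell. The inhibitory SMAD7, with the smallest adjusted p of the list, had 13.6 and 17.3 CPM at 12 h and 20.7 and 25.4 CPM at 24 h (0.57 ± 0.13, adjusted p = 0.0017) and was not past the test without the second 24 h library.

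Lists of other lineages had few tested genes, and some of these rose. Of 23 genes of the primitive streak and mesoderm, 13 had enough counts to be tested and 5 rose (1, 2, 2 and 2 with 1 library left out, and 1 by DESeq2). KDR, a VEGF receptor, had 37.7 and 42.2 CPM at 12 h and 54 and 51.2 CPM at 24 h (0.40 ± 0.083, adjusted p = 0.000784). MIXL1, a homeobox gene of the streak, had 0.276 and 0.828 CPM at 12 h and 2.09 and 1.67 CPM at 24 h (1.76 ± 0.50, adjusted p = 0.0124). It was not past the test without the first 12 h library or without either 24 h library. Of 6 tested endoderm genes, none passed the test by edgeR (1 was higher and 0 lower at an unadjusted p under 0.05, and 0 and 0 by DESeq2), and 2 of 13 neural genes fell (2, 0, 2 and 1 with 1 library left out), including FABP7 with 113 and 115 CPM at 12 h and 97.2 and 90.8 CPM at 24 h (-0.28 ± 0.059, adjusted p = 0.000994). NGFR, a neural crest receptor, had 5.11 and 4.65 CPM at 12 h and 12.04 and 12.1 CPM at 24 h (1.31 ± 0.15, adjusted p = 4.59e-08), with 22.3% of its length opposite another gene. Of 11 tested fibroblast genes, 6 rose (3, 3, 6 and 4 with 1 library left out) and none fell, and the summed level of the list was 679.9 and 679.5 CPM at 12 h and 792 and 824 CPM at 24 h, with LUM, DCN and FAP at 0 to 2 counts.

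**Figure D3:**
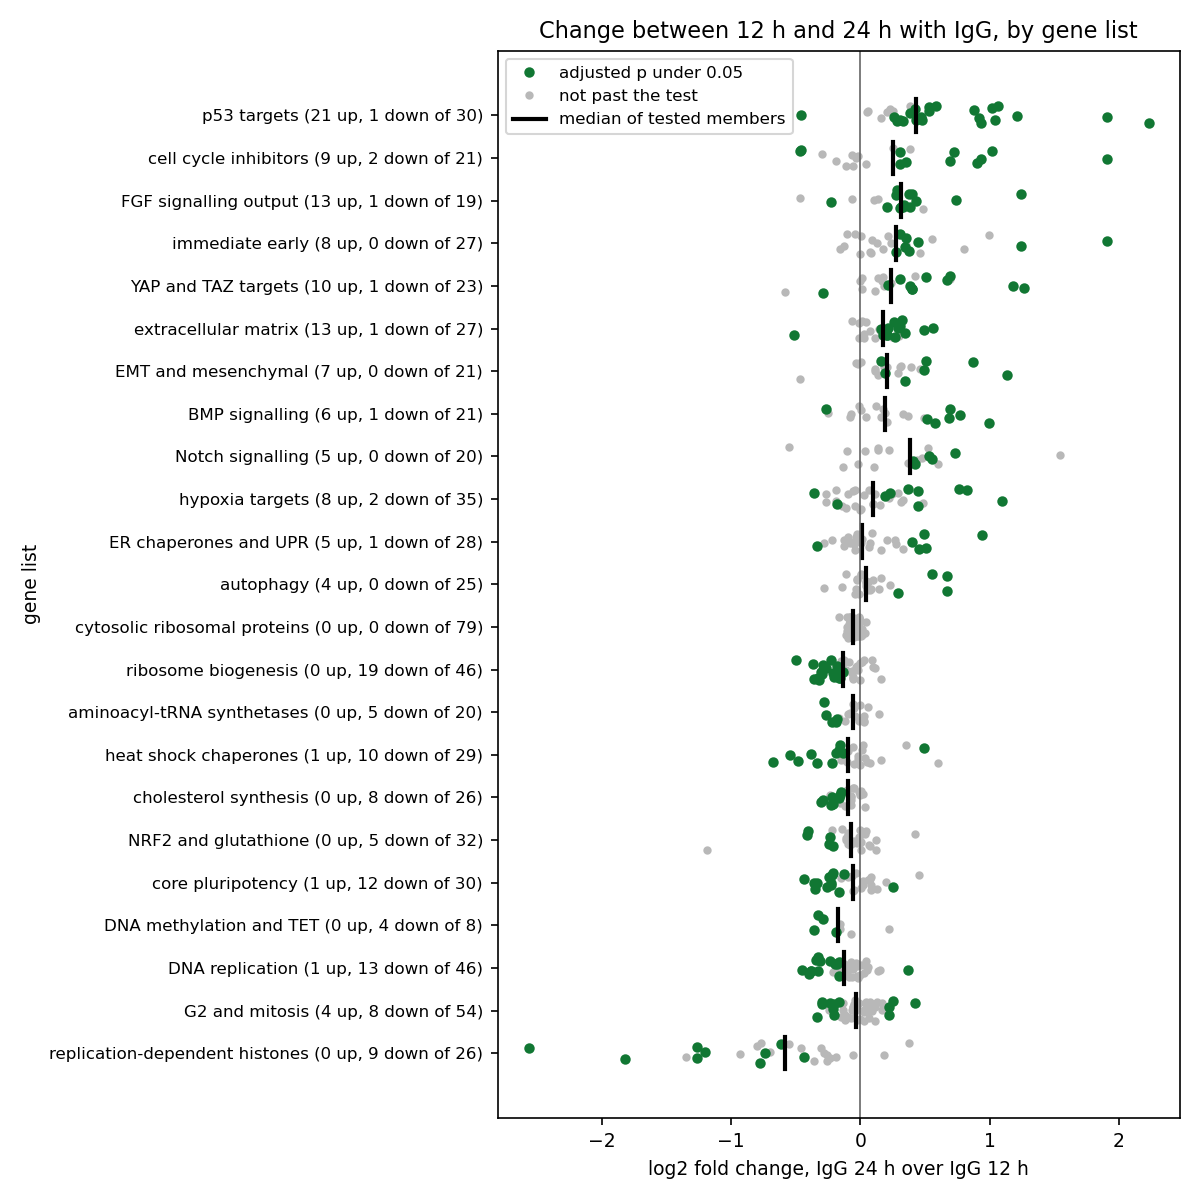
Log2 fold change of 24 h over 12 h with IgG (x axis) for the tested members of 23 gene lists (y axis). Each point is a gene, green where its adjusted p is under 0.05, and the black bar is the median of the list. The bar of the p53 targets lies at 0.43, that of the replication-dependent histones at -0.58 and that of the cytosolic ribosomal proteins at -0.054.

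Genes of the pluripotent state fell in part. Of 30 genes of the pluripotency list, 12 fell and 1 rose, with a median of -0.059. Leaving out 1 library gave 10, 7, 10 and 10 that fell. DNMT3B, the de novo DNA methyltransferase of early embryonic cells, had 1365 and 1393 CPM at 12 h and 1052 and 1101 CPM at 24 h (-0.36 ± 0.044, adjusted p = 1.55e-07). L1TD1, an RNA-binding protein of stem cells, had 1162 and 1165 CPM at 12 h and 958 and 882 CPM at 24 h (-0.34 ± 0.045, adjusted p = 7.1e-07). TERF1, a telomere-binding protein, had 642 and 649.5 CPM at 12 h and 521 and 491 CPM at 24 h (-0.35 ± 0.048, adjusted p = 8.15e-07). LIN28B, an inhibitor of let-7 processing, had 166 and 169 CPM at 12 h and 129 and 119 CPM at 24 h (-0.43 ± 0.06, adjusted p = 1.2e-06). These 4 genes lay lower in both 24 h libraries, while POU5F1, SOX2 and NANOG, given above, did not pass the test. SALL4, the 1 member that rose, had 189.6 and 189 CPM at 12 h and 220.2 and 232 CPM at 24 h (0.26 ± 0.053, adjusted p = 0.000697). In the DNA methylation list, 4 of 8 tested genes fell, DNMT3B among them (2, 2, 2 and 4 with 1 library left out). TDG, the glycosylase that removes oxidized methylcytosine, had 201 and 198 CPM at 12 h and 172 and 156 CPM at 24 h (-0.29 ± 0.056, adjusted p = 0.000333).

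Many of the genes that make ribosomes fell. No gene of the ribosomal proteins passed the test, though most had a small negative change. Of 46 ribosome biogenesis genes, 19 fell and 0 rose, with a median of -0.13. Leaving out 1 library gave 10, 5, 13 and 11 that fell. UTP20, a component of the small-subunit processome, had 197 and 206 CPM at 12 h and 145 and 139.8 CPM at 24 h (-0.50 ± 0.057, adjusted p = 2.5e-08). TSR1, a maturation factor of the small subunit, had 241 and 249.7 CPM at 12 h and 197 and 199.6 CPM at 24 h (-0.31 ± 0.053, adjusted p = 4.93e-05). Of its length, 23.9% lies opposite SRR. POLR1A and POLR1B, the large subunits of RNA polymerase I, had 130.3 and 136 CPM at 12 h and 97.2 and 109.6 CPM at 24 h for POLR1A (-0.36 ± 0.066, adjusted p = 0.000116), and 99.4 and 102 CPM at 12 h and 78.96 and 77.6 CPM at 24 h for POLR1B (-0.36 ± 0.068, adjusted p = 0.000191). Each of these lay lower in both 24 h libraries. Of 79 genes of cytosolic ribosomal proteins, none passed the test in either direction by edgeR, and their median was -0.054. Only 5 of the 79 had a change above 0. At an unadjusted p under 0.05, 0 were higher and 4 lower, DESeq2 called 0 and 0, and edgeR with the GC offset called 0 and 5. Of 20 aminoacyl-tRNA synthetases, 5 fell (3, 1, 5 and 2 with 1 library left out) and none rose, TARS1, the threonine enzyme, with 386 and 399 CPM at 12 h and 328 and 319 CPM at 24 h (-0.28 ± 0.05, adjusted p = 9.29e-05).

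Some genes of S phase fell. Of 46 DNA replication genes, 13 fell and 1 rose, with a median of -0.13. Leaving out 1 library gave 6, 3, 8 and 9 that fell. RRM2, the regulated subunit of ribonucleotide reductase, had 219 and 217 CPM at 12 h and 170.4 and 164 CPM at 24 h (-0.38 ± 0.054, adjusted p = 2.56e-06). MCM6, a subunit of the replicative helicase, had 228 and 226 CPM at 12 h and 195 and 191 CPM at 24 h (-0.24 ± 0.053, adjusted p = 0.00171). POLA1, the catalytic subunit of polymerase alpha, had 72.9 and 72.1 CPM at 12 h and 60.97 and 53.5 CPM at 24 h (-0.34 ± 0.075, adjusted p = 0.00126) and was not past the test without the second 24 h library. ORC6, of the origin recognition complex, was the member that rose, with 63.5 and 58.9 CPM at 12 h and 79.3 and 78.8 CPM at 24 h (0.37 ± 0.068, adjusted p = 0.000144). Replication-dependent histones, made in S phase, had few counts, and 26 of 54 were tested. Of these, 9 fell and none rose, and 5, 3, 5 and 5 fell with 1 library left out and 5 by DESeq2. H2BC11 had 12.2 and 14.6 CPM at 12 h and 5.46 and 5.68 CPM at 24 h (-1.26 ± 0.17, adjusted p = 4.8e-07), H2BC5 had 15.4 and 16.6 CPM at 12 h and 8.93 and 9.73 CPM at 24 h (-0.78 ± 0.13, adjusted p = 2.19e-05), and H2AC6 had 31.98 and 32.7 CPM at 12 h and 21.98 and 20.4 CPM at 24 h (-0.61 ± 0.10, adjusted p = 2.55e-05). Histone genes of a family are near-identical in sequence, so their reads may be shared between copies. In the list of G2 and mitosis, 4 of 54 genes rose and 8 fell. With 1 library left out, 0, 1, 3 and 1 rose and 2, 2, 11 and 2 fell. CDK6, a kinase of G1, fell, with 46.1 and 46.5 CPM at 12 h and 37.2 and 34.9 CPM at 24 h (-0.36 ± 0.078, adjusted p = 0.00104). CCND1 (cyclin D1), the 1 member of the G1 and S list that rose, had 88.6 and 86.5 CPM at 12 h. At 24 h it had 101 and 111 CPM (0.28 ± 0.066, adjusted p = 0.00256). It was not past the test without the second 12 h or the second 24 h library. CCND1 is left out of the counts and lists of named genes.

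**Figure D4:**
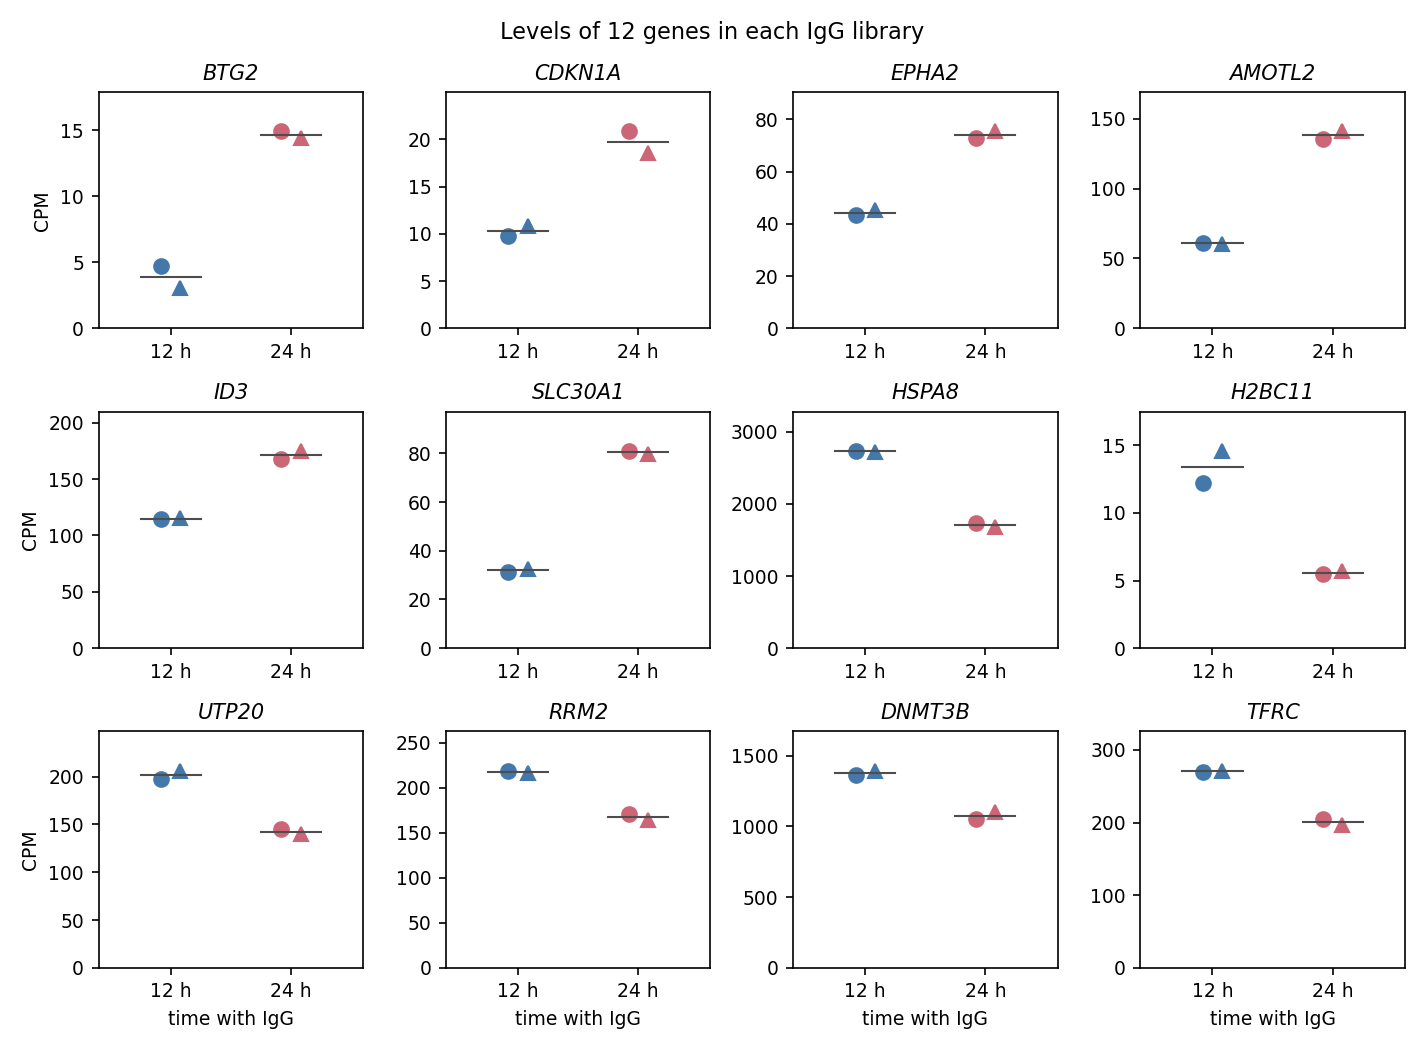
CPM (y axis, from 0) of 12 genes in each IgG library at 12 h (blue) and 24 h (red), with circles for replicate 1, triangles for replicate 2 and a line at the mean of the time. BTG2 to SLC30A1 lie higher and HSPA8 to TFRC lie lower in both 24 h libraries than in both 12 h libraries.

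Some cytosolic chaperones fell while some genes of the endoplasmic reticulum stress response rose. Of 29 heat shock chaperones, 10 fell and 1 rose, with a median of -0.10. Leaving out 1 library gave 7, 5, 9 and 7 that fell. HSPA8, the constitutive cytosolic HSP70 (chr11:123057489-123063230), had 2733 and 2724 CPM at 12 h and 1740.2 and 1682 CPM at 24 h (-0.67 ± 0.041, adjusted p = 1.15e-16), which was the largest drop in mean CPM of any protein-coding gene past the test, and 11.4% of its length lies opposite another gene. DNAJA1, an HSP40 co-chaperone, had 331 and 332 CPM at 12 h and 243 and 232 CPM at 24 h (-0.48 ± 0.052, adjusted p = 7.87e-09). HSPH1, an HSP70 nucleotide exchange factor, had 274 and 276 CPM at 12 h and 231 and 206 CPM at 24 h (-0.33 ± 0.054, adjusted p = 2.27e-05). DNAJB1, another HSP40, had 121 and 122 CPM at 12 h and 96.5 and 89.99 CPM at 24 h (-0.39 ± 0.064, adjusted p = 3.19e-05). The 1 member that rose was BAG3, a co-chaperone of selective autophagy, with 18.98 and 18.5 CPM at 12 h and 25.6 and 27.3 CPM at 24 h (0.50 ± 0.11, adjusted p = 0.00102). Of 28 genes of the endoplasmic reticulum, 5 rose and 1 fell. Their median was 0.0088 and 15 had a change above 0, so the list as a whole did not shift. XBP1, the transcription factor spliced by IRE1, had 87.4 and 86.4 CPM at 12 h and 120.5 and 127 CPM at 24 h (0.51 ± 0.063, adjusted p = 1.49e-07). HERPUD1, of the degradation machinery, had 11.1 and 14.4 CPM at 12 h and 24.2 and 24.7 CPM at 24 h (0.94 ± 0.12, adjusted p = 1.55e-07). CANX, the lectin chaperone calnexin, fell, with 791 and 829 CPM at 12 h and 659 and 624 CPM at 24 h (-0.34 ± 0.045, adjusted p = 7.19e-07).

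Some genes of cholesterol synthesis fell. Of 26 cholesterol synthesis genes, 8 fell and none rose, with a median of -0.10. Leaving out 1 library gave 3, 3, 6 and 5 that fell. IDI1, the isopentenyl diphosphate isomerase, had 326 and 308 CPM at 12 h and 274 and 245 CPM at 24 h (-0.29 ± 0.052, adjusted p = 9.33e-05), with 15% of its length opposite another gene. In the hypoxia list, 8 of 35 rose (6, 5, 5 and 6 with 1 library left out) and 2 fell. EPAS1, the HIF-2α subunit, had 5.07 and 3.86 CPM at 12 h and 9.33 and 9.78 CPM at 24 h (1.10 ± 0.17, adjusted p = 7.6e-06). ADM, the peptide adrenomedullin, had 41.9 and 45.9 CPM at 12 h and 56.9 and 62.5 CPM at 24 h (0.44 ± 0.075, adjusted p = 4.11e-05), and the glucose transporter SLC2A3 had 1005 and 998 CPM at 12 h and 1179 and 1110.0 CPM at 24 h (0.19 ± 0.042, adjusted p = 0.00108). Of 19 glycolysis genes, 1 rose and 2 fell. With 1 library left out, 0, 0, 2 and 0 rose and 0, 0, 1 and 0 fell. Of 61 nuclear genes of oxidative phosphorylation, 2 fell (0, 0, 3 and 0 with 1 library left out) and none rose. Of 13 mitochondrial genes 1 rose (0, 0, 0 and 0) and 1 fell (0, 0, 0 and 1). In the ATF4 amino acid list, 6 of 32 rose (2, 3, 5 and 3 with 1 library left out) and 2 fell. SESN2, a leucine sensor and p53 target, had 19.6 and 17.9 CPM at 12 h and 26.9 and 27.5 CPM at 24 h (0.53 ± 0.10, adjusted p = 0.000302), whereas SLC7A11, the cystine transporter, had 38.98 and 34.5 CPM at 12 h and 29.6 and 25.6 CPM at 24 h (-0.41 ± 0.092, adjusted p = 0.0016), a fall that was not past the test without the second 24 h library. Of 32 NRF2 and glutathione genes, 5 fell (2, 2, 4 and 3 with 1 library left out) and none rose, led by the thioredoxin reductase TXNRD1 with 314 and 322 CPM at 12 h and 273 and 268 CPM at 24 h (-0.23 ± 0.05, adjusted p = 0.00094).

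Genes of metal handling changed in both directions. SLC30A1, the zinc exporter that zinc induces through MTF1 (chr1:211571568-211579161), had 31.5 and 32.3 CPM at 12 h and 80.96 and 79.9 CPM at 24 h, a 2.52-fold rise (1.33 ± 0.08, adjusted p = 1.08e-16). The metallothionein MT2A, another MTF1 target, moved the other way and had 16.96 and 18.6 CPM at 12 h and 12.2 and 12.2 CPM at 24 h (-0.54 ± 0.12, adjusted p = 0.00108). Over 16 genes of the metal response, 2 rose and 2 fell (with 1 library left out, 1, 1, 1 and 2 rose and 1, 0, 2 and 1 fell). TFRC, the transferrin receptor for iron uptake, fell, with 270.2 and 271 CPM at 12 h and 204 and 196 CPM at 24 h (-0.43 ± 0.053, adjusted p = 1.07e-07), and so did SLC11A2, the iron transporter DMT1, with 101 and 98.1 CPM at 12 h and 83.7 and 79.8 CPM at 24 h (-0.29 ± 0.064, adjusted p = 0.00149).

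The changes largest in fold were in low transcripts. Protein-coding genes were ranked if their mean reached 1 CPM and the times did not overlap, and the 12 that rose most were GDF15, CLIC6, BTG2, ALKAL1, MIXL1, SGIP1, FAM163B, GIPC3, COL4A4, DET1, PPP1R32 and DOC2B, with log2 changes of 1.57 to 2.23, and of these only BTG2 had a mean over 5 CPM at either time. CLIC6, a chloride channel family member, had 0.783 and 0.506 CPM at 12 h and 2.18 and 2.91 CPM at 24 h (1.97 ± 0.42, adjusted p = 0.000869), and FAM163B had 1.34 and 1.104 CPM at 12 h and 3.997 and 4.097 CPM at 24 h (1.73 ± 0.30, adjusted p = 4.93e-05). The 12 that fell most were TBX10, PGBD4, SLC22A3, H3C10, H2BC11, H2BC4, CFAP44, EFCAB13, TCHH, DPY19L2, USP6 and ISM1, with log2 changes of -1.63 to -1.10. TBX10, a T-box gene, had 3.502 and 5.15 CPM at 12 h and 1.69 and 1.101 CPM at 24 h (-1.63 ± 0.28, adjusted p = 5.78e-05). Of these 24 genes, DET1, DOC2B, GIPC3, MIXL1, EFCAB13, H2BC4, H3C10, ISM1, PGBD4, SLC22A3, TCHH and USP6 were not past the test without the second 24 h library. Among abundant genes, those with the largest rises in mean CPM included SLC2A3, FSTL1, MYH9, VCL, RAB17, CCNG1 and AMOTL2. FSTL1, a secreted follistatin-like protein, had 501 and 513 CPM at 12 h and 645 and 602 CPM at 24 h (0.30 ± 0.045, adjusted p = 7.04e-06), and RAB17, a small GTPase of epithelial trafficking, had 129.9 and 131 CPM at 12 h and 197 and 222 CPM at 24 h (0.68 ± 0.059, adjusted p = 1.57e-11). The largest drops were those of HSPA8, DNMT3B, SCD, HNRNPA1, HNRNPU, SEPHS1, L1TD1 and EIF4G2, of which SCD and HNRNPA1 were not past the test without the second 24 h library. SEPHS1, a selenophosphate synthetase homologue, had 1284 and 1277 CPM at 12 h and 1023 and 1024 CPM at 24 h (-0.32 ± 0.041, adjusted p = 2.03e-07), and HNRNPU, a nuclear RNA-binding protein with 15.6% of its length opposite COX20, had 1249 and 1252 CPM at 12 h and 1014 and 963 CPM at 24 h (-0.34 ± 0.046, adjusted p = 8.15e-07).

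The same interval was measured in cells treated with anti-M8nAb, in libraries that the IgG comparison does not share. There 3254 genes (16.1%) were higher and 3170 (15.7%) lower at 24 h than at 12 h, and the median size of the log2 change was 0.26, against 0.18 with IgG. The change with time differed between the antibodies for 2486 genes (12.3%) by the test of the difference itself. Of the genes that rose with IgG, 79.4% had a change of the same sign with anti-M8nAb and 762 rose there too, while 107 fell there. Of those that fell with IgG, 83.0% had the same sign, 687 fell there too and 57 rose. The share of the same sign over all genes tested was 63.2%, and it was 62.7% with the GC offset. These shares are descriptions, and both anti-M8nAb libraries at 12 h also had a trend with GC content (r = -0.229 and -0.181).

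The lists can be set side by side. Over all genes tested, 16.1% rose and 15.7% fell with anti-M8nAb, against 7.01% and 6.64% with IgG, so counts of calls are not alike in base. The change with time itself differed for 7 of 30 p53 targets, 14 of 27 immediate early genes and 20 of 46 DNA replication genes. It differed for 11 of 46 ribosome biogenesis genes and 6 of 29 heat shock chaperones, against 12.3% of all genes. Of the p53 targets, 21 rose with anti-M8nAb, with a median of 0.64 against 0.43 with IgG. CDKN1A rose under both antibodies, and more with anti-M8nAb (log2 change 2.36 against 0.93, difference -1.43, adjusted p = 2.17e-09), as did PLK2 (1.96 against 1.02, difference -0.95, adjusted p = 1.51e-05), whereas the rise of BTG2 (2.39 against 1.91) did not pass the test of a difference (difference -0.49, adjusted p = 0.168). Immediate early genes rose in 21 of 27 with anti-M8nAb and 8 with IgG. DNA replication genes fell in 35 and 13 of 46, and ribosome biogenesis genes in 31 and 19 of 46. Of the heat shock chaperones, 4 fell and 4 rose with anti-M8nAb, and 10 fell and 1 rose with IgG. The drop of HSPA8 was larger with IgG (-0.67 against -0.46, difference -0.21, adjusted p = 0.00992).

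Some genes moved in opposite directions. PRICKLE1, a planar cell polarity gene with 22.6% of its length opposite another gene, rose with IgG, with 78.7 and 83.3 CPM at 12 h and 126 and 128 CPM at 24 h (0.65 ± 0.067, adjusted p = 3.01e-09), and with anti-M8nAb it had 99.8 and 105 CPM at 12 h and 47.9 and 41.02 CPM at 24 h (log2 change -1.21, adjusted p = 4.43e-18). ID1 rose with IgG, as given above, and had 24.5 and 29.4 CPM at 12 h and 14.3 and 11.98 CPM at 24 h with anti-M8nAb (log2 change -1.04, adjusted p = 9.97e-10). MT2A fell with IgG and had 28.4 and 31.7 CPM at 12 h and 84.6 and 109 CPM at 24 h with anti-M8nAb (log2 change 1.69, adjusted p = 6.54e-19). For these 3 genes the difference of the changes passed the test, with adjusted p = 6.85e-19 for PRICKLE1, 5.78e-12 for ID1 and 2.53e-15 for MT2A. MAP1B, a microtubule-associated protein, had 294 and 294 CPM at 12 h and 267 and 252 CPM at 24 h with IgG (-0.18 ± 0.053, adjusted p = 0.0159), a fall that was not past the test without the second 24 h library, and rose with anti-M8nAb (log2 change 0.61, adjusted p = 6.27e-13). EIF5, a translation initiation factor, fell under both, less with IgG, with 295 and 303 CPM at 12 h and 244 and 213 CPM at 24 h (-0.39 ± 0.068, adjusted p = 6.49e-05) and 304 and 331 CPM at 12 h and 105 and 80.1 CPM at 24 h with anti-M8nAb (log2 change -1.78). The fall of EIF5 with IgG was not past the test by DESeq2 or with limma on log2 FPKM. CCN1, CCN2, TAGLN and VIM rose under both antibodies and more with anti-M8nAb, CCN1 by 1.59 against 0.39, CCN2 by 1.88 against 0.51, TAGLN by 1.46 against 0.35 and VIM by 1.21 against 0.19 on the log2 scale.

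**Figure D5:**
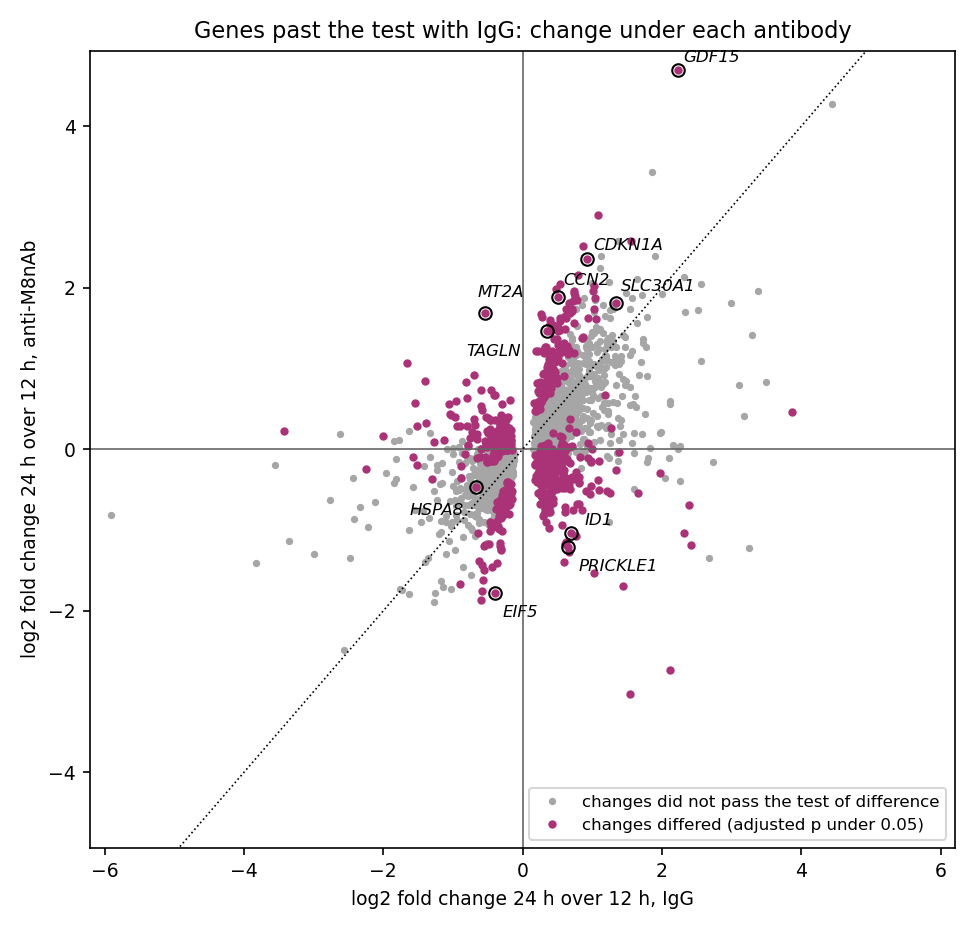
Log2 fold change of 24 h over 12 h with anti-M8nAb (y axis) against that with IgG (x axis) for the 2753 genes past the test with IgG, purple where the changes differed at an adjusted p under 0.05. The dotted line marks equal changes, ringed genes are named in the text, and the changes of PRICKLE1, ID1 and MT2A have opposite signs under the antibodies.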

How the data were processed

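RNA of BG01 cells was sequenced in 8 libraries, 2 for each antibody and time. Per the methods of the study, RNA was extracted with TRIzol, reads were trimmed with Trimmomatic, aligned to GRCh38.p14 with STAR in 2 passes and freed of duplicates with Picard, and the authors deposited HTSeq counts per Ensembl gene and FPKM computed by the authors with RNAnorm. FastQC 0.11.9 is in the submitters' processing notes. The methods of the study do not state how HTSeq treated strands, so the counts were taken to hold reads of both strands. Of 62086 gene identifiers, 62086 matched GENCODE v44, which gave names, types, exon GC content and opposite-strand overlap. The count table has 1005 lines with no gene name, of which the last 5 held 53.2% to 54.1% of each library's counts and the others 0.089% to 0.097%, and these stayed out of library sizes and tests. A further 4 columns of per-sample values matched no sample and were not used.

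The deposited counts of all 8 libraries were fitted together with edgeR 4.0.16 (limma 3.58.1, R 4.3.3), with filterByExpr, TMM scaling, 1 coefficient per antibody and time, and the quasi-likelihood test. The common biological coefficient of variation was 5.53%. Depth was 21010400 to 21792716 counts in genes. DESeq2 1.42.0, DESeq2 size factors, other filters, protein-coding genes alone, the IgG libraries alone, limma on log2 FPKM, an offset for exon GC content, a replicate block and the fits without each IgG library were alternatives. The fits were tested on simulated data first.

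Named genes were the 12 protein-coding genes with the largest change in each direction among those past the test with separate libraries and a mean of at least 1 CPM, the 8 with the largest difference in CPM in each direction, up to 4 of each list with the smallest adjusted p, genes whose change differed most between the antibodies, long non-coding RNAs with the largest change, and MFGE8, POU5F1, SOX2 and NANOG. Some genes that this rule names are not reported here. Members that went against their list (TP53I3, ETV1, DUSP6, SALL4, BAG3, YAP1) and COL1A1, THY1 and FABP7 were named after their values were seen, and the p53 half-site was added to the motifs then. Members and lists were chosen with earlier results of these data known.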

Additional observations from a re-analysis of the deposited data

Results flagged for a closer look

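For 60 of the 132 genes named here that passed the test with IgG, the change with time also differed from that with anti-M8nAb by edgeR's test of the difference (adjusted p under 0.05, 2 libraries per group). Of all genes tested 12.3% did so, and since some genes were named for this difference, nothing is read from the count. Values are the log2 change with IgG minus that with anti-M8nAb, so a negative value for a gene that rose with IgG means that it rose less than with anti-M8nAb. Base composition differed between libraries of both antibodies, and with the GC offset all 60 differences passed the test with the same sign.

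Among p53 targets and stress genes the values were -1.43 for CDKN1A, -0.95 for PLK2, -2.47 for GDF15, -1.05 for SESN2 and -0.33 for TNFRSF10B. These 5 genes rose less with IgG. The ER stress gene HERPUD1 had -0.68, the growth-inhibitory cyclin CCNG2 had -0.83, and ARRDC3 had -0.82. In the growth factor genes the values were -0.44 for EPHA2, 0.27 for SPRY4 and -0.92 for NR4A1.

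Smaller rises with IgG were measured for some genes of the cytoskeleton, matrix and adhesion, with -1.21 for CCN1, -1.38 for CCN2, -1.11 for TAGLN and -1.02 for VIM. The same held for THBS1 (-0.64), ITGA5 (-1.05), FSTL1 (-0.63), MYH9 (-0.27) and VCL (-0.31). AMOTL2 (0.50) and LATS2 (0.41) rose more with IgG on the log2 scale, from lower levels at 12 h, and VCAN, which fell under both, had -0.35. Mean CPM of AMOTL2 at 12 h and 24 h was 60.8 and 138 with IgG, and 125 and 200 with anti-M8nAb. For LATS2 the means were 34.0 and 54.2 with IgG, and 45.7 and 54.7 with anti-M8nAb. The gap junction genes had 0.58 for GJC1 and -0.20 for GJA1.

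Among named genes of developmental signalling the values were 1.73 for ID1, 0.86 for ID3, 0.99 for BMP2, 0.88 for SMAD7, 1.05 for AXIN2 and 1.85 for PRICKLE1. L1TD1 (0.41), TERF1 (0.38), RRM2 (0.36) and MCM6 (0.36) fell less with IgG. SALL4 had 0.43, ORC6 had 0.29, CDK6 had -0.37 and the histone gene H2BC11 had -1.35. Smaller falls with IgG were also measured for EIF5 (1.39), TARS1 (0.23), SNHG4 (0.72) and IDI1 (0.27).

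Among the chaperones the values were -0.21 for HSPA8 and -0.33 for HSPH1. In metal, iron and amino acid transport the values were -2.23 for MT2A, -0.47 for SLC30A1, -0.55 for TFRC and -1.08 for SLC7A11. The remaining values were -0.28 for SLC2A3, -0.15 for SCD, 0.31 for RAB17, 1.15 for TEF, -0.80 for MAP1B and -0.29 for FABP7. Among low transcripts CLIC6 had 2.26, GIPC3 had 2.20, DPY19L2 had -1.23, ENSG00000271978 had 1.60 and ENSG00000282048 had 1.81.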

How the results depend on the processing

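No named gene past the test changed direction under the alternatives run, and counts of calls moved. For the fits without 1 library, the separation of the times given above largely fixed the direction in advance. More genes fell than rose with DESeq2, without a filter and with the GC offset (1576 higher and 1609 lower), the reverse of the main count. Of 50 lists, 8 had a median that changed sign under at least 1 alternative, and these medians were at most 0.12 in size. They were those of the endoderm, trophoblast and amnion, metal response, G2 and mitosis, mitochondrial genome, FOXO and glucose-sensing, lysosome and iron lists. Where 1 or 2 members of a list were called in a direction, leaving out 1 library moved their number by at most 2. DESeq2 called 932 genes higher and 1010 lower (83 and 24 by 2-fold) and 1652 differences between the antibodies. Without a filter on low counts the numbers were 677, 739, 99, 43 and 1228, in the same order. With limma they were 529, 237, 7, 6 and 919 on log2 of FPKM plus 1, 473, 210, 45, 27 and 896 with 0.1 added, and 165, 81, 4, 2 and 454 without a filter. Besides the lists given above, DESeq2 called 3 Notch, 5 hypoxia, 2 NODAL and 2 mitotic genes higher and 5 mitotic genes lower. With the GC offset 8 NRF2, 8 junction, 5 nuclear oxidative phosphorylation, 5 fatty acid synthesis and 4 glycolysis genes were lower, 3 mesoderm genes were higher, and 8 endoplasmic reticulum genes were higher and 4 lower. Protein-coding genes alone gave 33 genes lower by 2-fold. Leaving out 1 IgG library at a time gave 552 to 1052 genes higher and 376 to 1026 lower, 92 to 137 and 33 to 57 by 2-fold, and 1452 to 2130 differences, the remaining library of a time being assumed to vary like the other groups. The smallest counts came without the second 12 h library, except that differences were fewest without the first 12 h library. Both numbers of higher and lower genes moved by over 1.5 times without each library except the first at 24 h. Of the genes named here, 22 lost their call without the first 12 h library (adjusted p of 0.0507 to 0.555 by edgeR), 29 without the second (0.0518 to 0.442), 11 without the first 24 h library (0.0506 to 0.401) and 22 without the second (0.051 to 0.335). ISM1 and USP6 lost it without any 1 of the 4, and GIPC3, H3C10, COL1A1, ETV1 and MAP1B without all but the first 24 h library. DPY19L2, ENSG00000271978, MGC4859, CFAP44, MIXL1, CCNG2, H2BC4, PGBD4 and SLC22A3 also lost it without the first 24 h library. IRF1 and GJA1 lost it without the second 12 h library. The IgG libraries alone gave no count of differences. The replicate block gave 1386 higher, 1302 lower and 2434 differences, and of the named genes ISM1 lost its call (adjusted p = 0.0508 by edgeR). Deviations of same-numbered libraries from the means of their groups had correlations of -0.052 to 0.043 between groups. These values cannot tell if same-numbered libraries shared a culture or day. For single genes, 1854 values kept their side of the threshold, 259 lost it and 1 gained it. DESeq2 did not call 6 of the named genes, CCNG2, CFAP44, EIF5, ENSG00000271978, TCHH and USP6. Without a filter on low counts, 12 lost their call. With limma on log2 FPKM, 29 lost it with 1 added and 29 with 0.1 added. Limma without a filter lost 97, with CDKN1A, CCN2, DNMT3B, L1TD1, ID1 and HNRNPU among them. With 2 libraries per time, small changes of low genes are not detectable.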

Other observations

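Several lists not described above held changes in both directions or few changes. Counts with 1 library left out are in the same order as above. Of 22 clock genes, 6 rose and 2 fell. Of the list, 4, 3, 6 and 2 rose and 0, 2, 3 and 0 fell with 1 library left out. TEF, a PAR bZIP factor driven by the clock, had 15.2 and 16.1 CPM at 12 h and 26.8 and 28.3 CPM at 24 h (0.81 ± 0.11, adjusted p = 3.02e-07), and NR1D2, the repressor REV-ERB beta, had 24.9 and 26.5 CPM at 12 h and 36.02 and 33.7 CPM at 24 h (0.44 ± 0.09, adjusted p = 0.000645). Both times were separate for these genes. Of 16 NF-kB genes, 4 rose (4, 2, 4 and 3 with 1 library left out) and none fell. ICAM1, an adhesion molecule, had 4.61 and 3.77 CPM at 12 h and 11.9 and 7.22 CPM at 24 h (1.19 ± 0.19, adjusted p = 1.44e-05), with 23.6% of its length opposite ICAM4-AS1. Of 23 interferon response genes, 5 rose (3, 1, 5 and 3 with 1 library left out) and none fell, among them IRF1, an interferon-induced factor, with 6.36 and 5.15 CPM at 12 h and 9.99 and 9.43 CPM at 24 h (0.75 ± 0.18, adjusted p = 0.00253) and 22.9% of its length opposite IRF1-AS1.

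Of 25 autophagy genes, 4 rose (4, 2, 4 and 3 with 1 library left out) and none fell. WIPI1, a phosphoinositide-binding protein of the phagophore, had 11.4 and 11.8 CPM at 12 h and 16.7 and 17.4 CPM at 24 h (0.55 ± 0.12, adjusted p = 0.00135), with 24.4% of its length opposite ARSG, and the receptor OPTN had 20 and 20.2 CPM at 12 h and 34.8 and 29.2 CPM at 24 h (0.67 ± 0.11, adjusted p = 2.04e-05). In the list of FOXO and glucose-sensing targets, 6 of 22 rose and 4 fell. Of the list, 2, 2, 4 and 3 rose and 1, 2, 2 and 1 fell with 1 library left out. The smallest adjusted p was that of the arrestin ARRDC3 with 17.2 and 17.6 CPM at 12 h and 10.9 and 9.34 CPM at 24 h (-0.78 ± 0.12, adjusted p = 1.33e-05). Among 32 lysosomal genes 2 rose and 3 fell. Of the list, 1, 0, 1 and 3 rose and 0, 0, 1 and 1 fell with 1 library left out. Of 32 genes of junctions and keratins, 5 rose and 4 fell. For these genes 3, 3, 4 and 4 rose and 2, 0, 4 and 2 fell with 1 library left out. The gap junction gene GJC1 had 152 and 154 CPM at 12 h and 203 and 192 CPM at 24 h (0.37 ± 0.056, adjusted p = 7.98e-06), and GJA1, connexin 43, had 723 and 770.4 CPM at 12 h and 663 and 625 CPM at 24 h (-0.21 ± 0.046, adjusted p = 0.00103). Host genes of small nucleolar RNAs fell in 5 of 26 (2, 3, 3 and 4 with 1 library left out) and rose in 1, with SNHG4 at 144 and 142 CPM at 12 h and 116 and 118 CPM at 24 h (-0.29 ± 0.06, adjusted p = 0.000675).

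Of 22 fatty acid synthesis genes, 2 rose and 2 fell, of 19 fatty acid oxidation genes 1 rose, and of 9 naive pluripotency genes 2 rose (1, 0, 1 and 0 with 1 library left out). Among 21 G1 and S regulators 1 rose and 5 fell (2, 1, 3 and 2 with 1 library left out, and 2 by DESeq2), and among 13 iron genes 1 rose and 2 fell. Of 11 neural crest genes, 2 rose and 1 fell, and of 7 trophoblast and amnion genes 1 rose. Of 10 cholesterol efflux genes none passed the test by edgeR, 3 being higher and 0 lower at an unadjusted p under 0.05, and 0 and 0 by DESeq2.

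Among long non-coding RNAs with the largest changes, ENSG00000282048 had 5.02 and 5.43 CPM at 12 h and 13.1 and 11.98 CPM at 24 h (1.26 ± 0.16, adjusted p = 4.11e-07) and ENSG00000271978 had 0.599 and 0.736 CPM at 12 h and 2.31 and 1.101 CPM at 24 h (1.34 ± 0.40, adjusted p = 0.0191). MGC4859, with 47.1% of its length opposite HSPA8P8, had 1.47 and 1.66 CPM at 12 h and 0.3997 and 0.661 CPM at 24 h (-1.55 ± 0.44, adjusted p = 0.0124).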
